A study of Sus scrofa with 95 samples.

Results

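Nuclear factor erythroid 2-related factor 2 (NRF2, gene NFE2L2) target genes and antioxidant enzymes were followed in 5 organs of infant pigs after cardiopulmonary bypass. The members were 36 genes chosen by symbol from the count table, and all 36 were found among its 35670 genes. Cardiopulmonary bypass (CPB) hands the work of heart and lungs to a machine, and here it was combined with deep cooling and a full stop of the circulation for 75 min. The pigs weighed 5 to 10 kg, and both sexes were used. The linrodostat arm had 4 animals that underwent CPB with circulatory arrest and received 75 mg of linrodostat, an inhibitor of the tryptophan-degrading enzyme IDO1. The CPB arm had 7 animals with CPB and circulatory arrest and no linrodostat. The control arm had 8 animals that were anesthetised and had no bypass. Each of the 19 animals gave 1 library of poly(A) RNA for each of heart (left ventricle), ileum (terminal part), kidney (cortex), liver and lung (right lower lobe), 95 libraries in all. Kidney and ileum were taken shortly before euthanasia and the other 3 organs shortly after it, in all arms.

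NRF2 is a transcription factor that is kept scarce in resting cells, because the adaptor protein KEAP1 holds it and hands it to the proteasome. Oxidants and electrophiles modify KEAP1, NRF2 then accumulates, pairs with a small MAF protein such as MAFG and binds antioxidant response elements in its target genes. The targets make glutathione (GCLC, GCLM, SLC7A11), reduce quinones and thioredoxin (NQO1, TXNRD1), repair oxidised peroxiredoxins (SRXN1), supply NADPH (PGD, TALDO1, TKT, ME1) and export conjugates (the ABCC transporters). Peroxiredoxins, glutathione peroxidases, superoxide dismutases and catalase remove peroxides and superoxide themselves, and several of them are regulated by other factors as well. In the kidney and the liver this system is known for handling oxidants and foreign compounds.

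Libraries held 19956859 to 53627723 counts, with a median of 35114855. Levels are given in CPM, which are counts scaled to a fixed library total after trimmed mean of M values (TMM) scaling within the organ, and are not scaled for gene length, so each gene is compared only with itself. Summed markers of heart muscle were 57365 to 105581 CPM in heart libraries and at most 369 CPM in other organs. Kidney tubule markers summed to 8231 to 14477 CPM in kidney and at most 675 CPM elsewhere, hepatocyte markers to 73457 to 114586 CPM in liver and at most 2551 CPM elsewhere, and lung epithelium markers to 7331 to 14329 CPM in lung and at most 177 CPM elsewhere. Ileal epithelium markers were less particular to their organ, with 1674 to 12950 CPM in ileum and up to 4543 CPM in other organs, the highest in a CPB liver. The ileum library of CPB animal 19 stood apart from the other 18 ilea, with the lowest sum of ileal epithelium markers, and ileum results are given with and without it. Every heart library carries batch label 2 and every other library batch label 1, so organ and batch cannot be told apart where heart is set against the rest. All samples are bulk tissue, in which fewer cells of a type and less RNA per cell cannot be told apart. Log2 fold changes come from edgeR's quasi-likelihood test and are followed by ± the standard error, and a gene passed at a Benjamini-Hochberg adjusted p under 0.05 over all genes tested in the organ. Counts of members at an unadjusted p under 0.05, or above or below 0, are descriptions given without the share of all genes.

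In control animals the highest level of each member was found in different organs. The organs were scaled separately, so levels set across them are a description. By mean level, 12 of the 36 were highest in kidney, 9 in lung, 7 in liver, 6 in ileum and 2 in heart. These counts depend on the scaling. With TMM over all 95 libraries together the highest organ stayed the same for 16 of 36. Liver was then the highest organ for most members, and kidney only for NQO1, CBR1, GPX3 and SOD3. For 7 members (19.4%) the lowest control of the highest organ exceeded every control of the other 4 organs, as it did for 18.7% of all genes tested in any organ. GPX3, a secreted glutathione peroxidase made mainly by the kidney, averaged 11272 ± 4209 CPM in kidney (SD, n = 8) and 499 ± 182 CPM in lung, the next organ. SOD3, the extracellular superoxide dismutase, averaged 827 ± 263 CPM in kidney and 221 ± 65.1 CPM in lung. GPX2, the glutathione peroxidase of gut epithelium, averaged 123 ± 56.4 CPM in ileum and 21.1 ± 10.2 CPM in lung, and was listed at 0 in all 8 control hearts. OSGIN1, an NRF2 target that restrains cell growth, averaged 327 ± 110.2 CPM in liver and 41.9 ± 23.2 CPM in kidney. The other 3 were highest in lung, namely PRDX6 (259.9 ± 49.0 CPM) and the pentose phosphate enzymes PGD (283 ± 32.5 CPM) and TKT (457 ± 38.5 CPM). Catalase (CAT) averaged 1938 ± 359.6 CPM in liver and 1556 ± 400.4 CPM in kidney, with overlapping ranges.

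The carbonyl reductase gene CBR1 was low throughout and highest in kidney, with 2.84 to 15.6 CPM in linrodostat kidneys, 0.382 to 6.17 CPM in CPB kidneys and 0.447 to 8.05 CPM in control kidneys. It has close copies among the carbonyl reductases, and how reads were shared among copies is not given in the sources used here, so its level is uncertain. CBR1 was filtered out as too low in heart, ileum and lung, and ABCC2 and GPX2 in heart. The tests therefore cover 36 members in kidney and liver, 35 in ileum and lung, and 33 in heart.

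**Figure D1:**
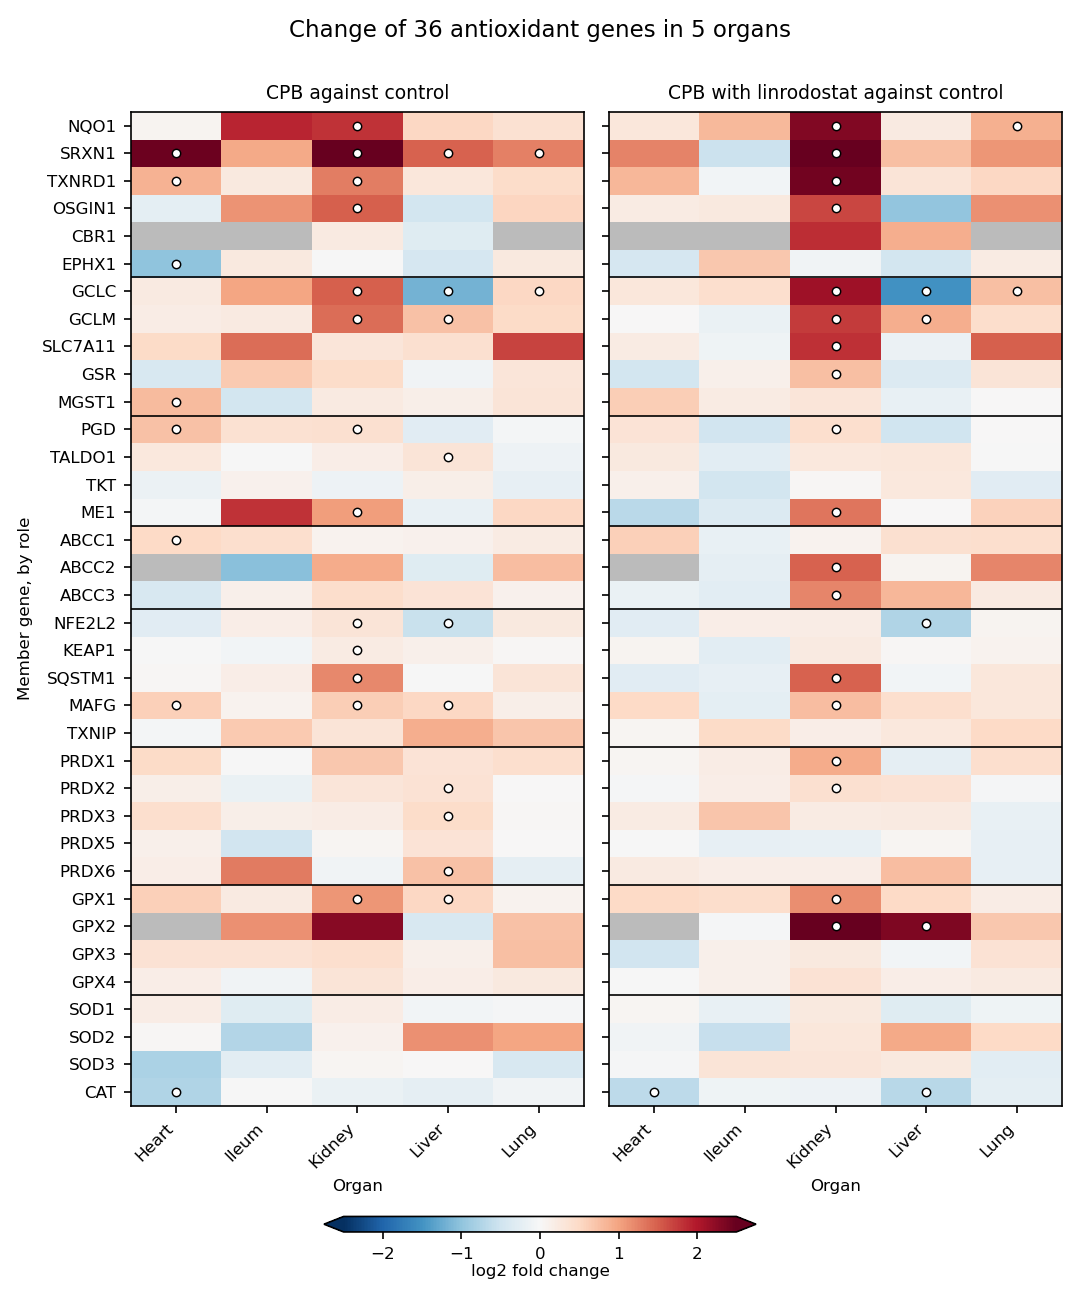
Log2 fold change (colour, saturating at 2.5 in either direction) of the 36 members, in rows grouped by role, in 5 organs, for CPB against control on the left and CPB with linrodostat against control on the right. White points mark an adjusted p under 0.05 and grey cells a gene not tested; the kidney columns hold 13 marks on the left and 18 on the right, all of them higher.

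With CPB, more members rose in the kidney than in any other organ, and few fell in any organ. In kidney 13 of 36 members (36.1%) passed as higher and 0 as lower, where 11.3% of all tested genes were higher and 9.86% lower. In heart 6 of 33 (18.2%) were higher and 2 lower, against 6.39% and 5.53% of all genes higher and lower. In liver 8 of 36 (22.2%) were higher and 2 lower, where all genes had shares of 15.6% and 11.3%, so the liver share is nearer to that of genes at large. In lung 2 of 35 (5.71%) were higher and 0 lower, against 2.08% and 2.62% of all genes higher and lower. In ileum 0 of 35 members passed, and 0% of all genes were higher and 0% lower. The members' median log2 fold change was 0.32 in kidney (all tested genes −0.025), 0.16 in heart (all genes −0.016), 0.15 in liver (all genes −0.027), 0.25 in lung (all genes 0.014) and 0.17 in ileum (all genes −0.022). The ileum median rests on CPB animal 19, without whose library 22 of 35 members were below 0 and the median was −0.11.

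SRXN1 (sulfiredoxin, ENSSSCG00000023298, chromosome 17: 34582377 to 34589308 in Sscrofa11.1) passed as higher in 4 organs, more than any other member. MAFG passed as higher in heart, kidney and liver. TXNRD1 and PGD did so in heart and kidney, and GCLM and GPX1 in kidney and liver. GCLC passed as higher in kidney and lung and as lower in liver, and NFE2L2 itself as higher in kidney and lower in liver. No other member passed in opposite directions in 2 organs. Several of these calls were lost when 1 animal was left out. That of SRXN1 in lung was lost without any 1 of 14 animals, and that of NFE2L2 in kidney without any 1 of 13. That of GCLC in lung was lost without any 1 of 12, and that of MAFG in liver without any 1 of 10. SRXN1 in liver was lost without CPB 2 or 25, GPX1 in kidney without CPB 19 or 25, and GPX1 in liver without CPB 25. Of the 36 members, 7 lie on chromosome 2 (TALDO1, PRDX5, CAT, PRDX2, KEAP1, GPX4 and SQSTM1), and no more than 4 on any other chromosome.

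The kidney cortex was the organ with the most members higher after CPB. The 13 included 4 of 6 genes in the thiol and quinone enzyme group and 2 of 5 in the group of glutathione supply and use. They also included 2 of 4 genes of NADPH supply, 4 of 5 regulators and 1 of 4 glutathione peroxidases. The groups are loose. The thiol and quinone group also holds OSGIN1 and the epoxide hydrolase EPHX1, and the glutathione group holds the glutathione transferase MGST1. Of the 6 genes in the thiol and quinone group 4 rose with CPB (SRXN1, TXNRD1, NQO1 and OSGIN1), and EPHX1 and CBR1 did not pass. SRXN1, which reactivates overoxidised peroxiredoxins, had 417, 496, 381 and 335 CPM in the 4 linrodostat animals, 191 to 579 CPM (median 368) in the 7 CPB animals and 21.7 to 106 CPM (median 55.5) in the 8 controls. Every CPB and linrodostat kidney was above the highest control, and the log2 fold change was 2.55 ± 0.30 (adjusted p = 1.57e-05). NQO1, the quinone reductase often read as an NRF2 reporter, had 1046, 473, 351 and 248 CPM in the 4 linrodostat animals, 192 to 582 CPM (median 333) in the 7 CPB animals and 29.9 to 188 CPM (median 111) in the 8 controls. The lowest CPB kidney was just above the highest control (log2 fold change 1.81 ± 0.39, adjusted p = 0.00358). TXNRD1, cytosolic thioredoxin reductase, had 281, 263, 296 and 122 CPM in the 4 linrodostat animals, 63.8 to 157 CPM (median 99.2) in the 7 CPB animals and 31.4 to 65.2 CPM (median 41.1) in the 8 controls. A single CPB kidney was within the control range, 6 of 7 were above it, and the log2 fold change was 1.28 ± 0.21 (adjusted p = 0.000473). OSGIN1 had 204, 111, 102 and 119 CPM in the 4 linrodostat animals, 85.4 to 202 CPM (median 102) in the 7 CPB animals and 13.7 to 75.3 CPM (median 41.2) in the 8 controls, again with no CPB kidney inside the control range (log2 fold change 1.49 ± 0.33, adjusted p = 0.00401).

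Both subunits of glutamate cysteine ligase, the rate-limiting enzyme of glutathione synthesis, were higher in CPB kidneys. GCLM (the modifier subunit, ENSSSCG00000037549, chromosome 4: 123371198 to 123390130) had 228, 179.7, 228 and 152 CPM in the 4 linrodostat animals, 90.0 to 205 CPM (median 154) in the 7 CPB animals and 50.0 to 73.9 CPM (median 55.5) in the 8 controls. It had the smallest adjusted p of all members in this comparison, with all 7 CPB kidneys above the controls (log2 fold change 1.41 ± 0.15, adjusted p = 7.68e-06). GCLC (the catalytic subunit) had 314, 237, 443 and 276 CPM in the 4 linrodostat animals, 114 to 366 CPM (median 177) in the 7 CPB animals and 38.7 to 104 CPM (median 76.5) in the 8 controls, likewise without overlap (log2 fold change 1.49 ± 0.24, adjusted p = 0.000312). The other 3 genes of the group of glutathione supply and use did not pass with CPB. They are the cystine carrier SLC7A11 (log2 fold change 0.31 ± 0.48, adjusted p = 0.677), glutathione reductase GSR (0.47 ± 0.17, adjusted p = 0.0541) and MGST1 (0.22 ± 0.17, adjusted p = 0.369).

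Of the 4 NADPH genes, malic enzyme ME1 and 6-phosphogluconate dehydrogenase PGD rose in kidney. ME1 had 13.2, 17.5, 14.6 and 12.4 CPM in the 4 linrodostat animals, 6.87 to 16.9 CPM (median 11.2) in the 7 CPB animals and 2.83 to 9.56 CPM (median 5.31) in the 8 controls, with 6 of 7 CPB kidneys above all controls (log2 fold change 1.04 ± 0.23, adjusted p = 0.0042). PGD had 127, 117, 132 and 97.2 CPM in the 4 linrodostat animals, 98.6 to 140.1 CPM (median 120.0) in the 7 CPB animals and 72.5 to 114 CPM (median 86.4) in the 8 controls, where 4 of 7 CPB kidneys were above all controls and 3 overlapped with them (log2 fold change 0.41 ± 0.11, adjusted p = 0.0154). TALDO1 and TKT did not pass, nor did any of the 3 export genes, whose log2 fold changes lay between 0.085 and 0.93.

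Among the 5 regulators, 4 passed as higher in kidney. SQSTM1 encodes p62, a cargo receptor of autophagy that binds KEAP1 and is itself an NRF2 target. It had 1001, 1166, 1232 and 651 CPM in the 4 linrodostat animals, 665 to 1082 CPM (median 882) in the 7 CPB animals and 285 to 460.2 CPM (median 370.0) in the 8 controls, without overlap (log2 fold change 1.21 ± 0.15, adjusted p = 1.95e-05). MAFG, the DNA-binding partner of NRF2, had 26.97, 29.4, 24.0 and 22.7 CPM in the 4 linrodostat animals, 17.3 to 26.4 CPM (median 24.2) in the 7 CPB animals and 10.6 to 20.3 CPM (median 13.9) in the 8 controls, with 5 of 7 CPB kidneys above the controls (log2 fold change 0.61 ± 0.14, adjusted p = 0.00463). Changes of NFE2L2 and KEAP1 were small. NFE2L2 had 181 to 303 CPM (median 224) in CPB animals and 172 to 209 CPM (median 190.5) in controls, with 4 of 7 CPB kidneys above the controls (log2 fold change 0.32 ± 0.11, adjusted p = 0.0414). KEAP1 had 97.3 to 125 CPM (median 111) in CPB animals and 82.2 to 104 CPM (median 95.8) in controls, with 5 of 7 CPB kidneys above the controls (log2 fold change 0.21 ± 0.072, adjusted p = 0.047). The call of NFE2L2 ended when any 1 of 13 animals was left out (all but linrodostat 20 and 24, CPB 6, 9 and 19, and control 7, adjusted p up to 0.134), and also with relative log expression size factors or without a low-count filter or with only the 2 arms compared. KEAP1 missed the threshold when any 1 of 17 animals was left out (all but linrodostat 24 and CPB 9, adjusted p up to 0.153), and also with relative log expression size factors or without a low-count filter or with only the 2 arms compared. TXNIP, which inhibits thioredoxin and is not a classical NRF2 target, did not pass (log2 fold change 0.32 ± 0.20, adjusted p = 0.273).

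Of the 13 enzymes that remove peroxide and superoxide, only GPX1 passed in CPB kidneys. GPX1, the cytosolic glutathione peroxidase, had 255, 449.9, 353 and 289 CPM in the 4 linrodostat animals, 136 to 644 CPM (median 276) in the 7 CPB animals and 55.1 to 226 CPM (median 160.0) in the 8 controls, with 4 of 7 CPB kidneys above all controls (log2 fold change 1.10 ± 0.33, adjusted p = 0.0238). Controls 1 and 7 had the lowest values, at 55.1 and 63.7 CPM. GPX1 no longer passed without CPB 19 or 25 (adjusted p up to 0.0761). The 5 peroxiredoxins among the members had log2 fold changes between −0.086 and 0.68, and the superoxide dismutases and catalase between −0.16 and 0.18. GPX2 was low in all kidneys, with 0.151 to 1.51 CPM (median 0.467) in CPB animals and 0 to 0.303 CPM (median 0.0848) in controls, and did not pass (log2 fold change 2.27 ± 0.84, adjusted p = 0.0589).

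**Figure D2:**
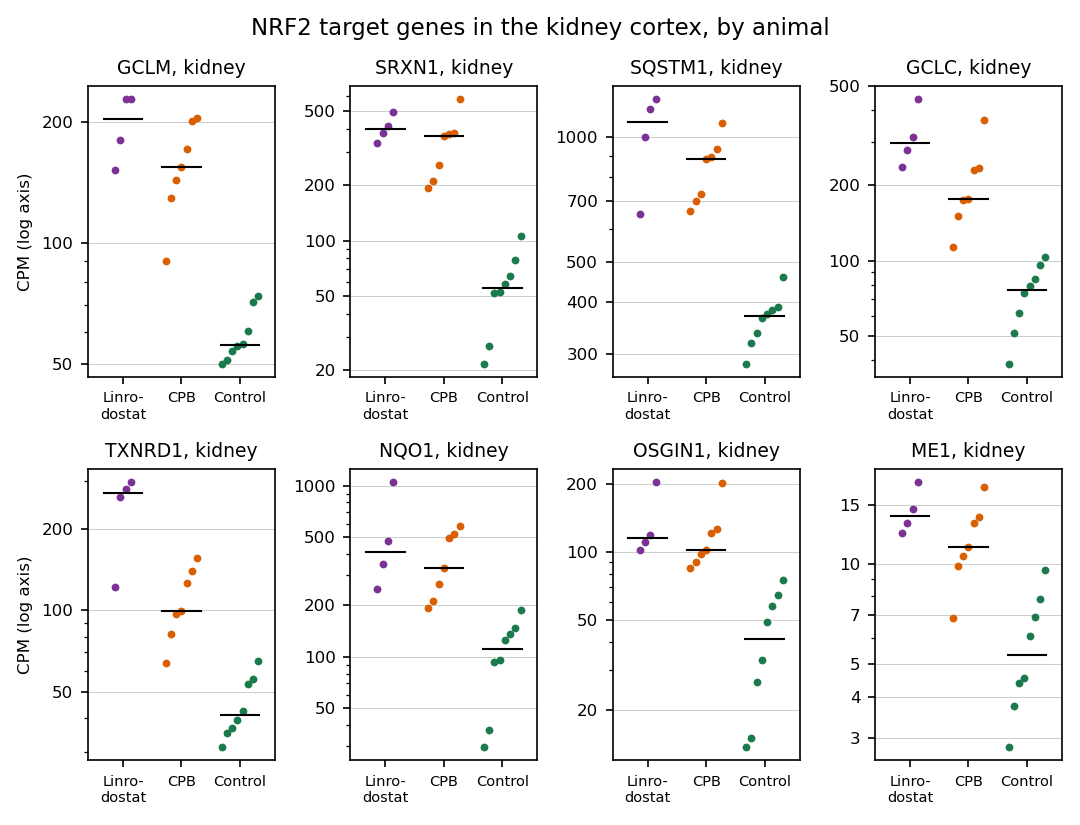
CPM (log axis) of 8 members in the kidney cortex, 1 point per animal, ordered by value within each arm, with the 4 linrodostat, 7 CPB and 8 control animals side by side and the median as a line. The CPB points of GCLM, SRXN1, SQSTM1, GCLC, NQO1 and OSGIN1 all lie above the highest control, and 1 CPB point of TXNRD1 and of ME1 does not.

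Linrodostat kidneys differed from the same 8 controls in 18 of 36 members, all higher, where 11.7% of all tested genes were higher and 8.27% lower. In every organ the 2 comparisons with controls use the same 8 controls, and the comparison of linrodostat with CPB uses the same CPB animals, so they are given side by side and not as separate evidence. The smallest p belonged to GCLM (log2 fold change of linrodostat against control 1.74 ± 0.17, adjusted p = 3.12e-06) and TXNRD1 (2.42 ± 0.24, adjusted p = 3.12e-06). SQSTM1 (1.47 ± 0.17, adjusted p = 1.3e-05) and SRXN1 (2.82 ± 0.33, adjusted p = 1.87e-05) followed, and in all 4 genes the 4 linrodostat kidneys were above every control. The members that passed here and missed the threshold with CPB alone were ABCC2, ABCC3, GSR, SLC7A11, GPX2, PRDX1 and PRDX2. NFE2L2 and KEAP1 passed with CPB alone and not here. None of these differences between the comparisons passed the test of linrodostat against CPB. ABCC3, which moves conjugates toward the blood, had 50.7, 62.4, 60.2 and 38.5 CPM in the 4 linrodostat animals, 19.3 to 47.1 CPM (median 27.8) in the 7 CPB animals and 15.8 to 34.4 CPM (median 20.1) in the 8 controls (linrodostat against control 1.21 ± 0.21, adjusted p = 0.000669), and all 4 linrodostat kidneys were above the controls. GSR had 197, 178, 184 and 156 CPM in the 4 linrodostat animals, 111 to 184 CPM (median 138) in the 7 CPB animals and 64.1 to 146 CPM (median 113) in the 8 controls (linrodostat against control 0.76 ± 0.20, adjusted p = 0.01), again with all 4 above the controls. SLC7A11 was low throughout, with 3.62, 6.46, 5.31 and 1.47 CPM in the 4 linrodostat animals, 0.381 to 4.07 CPM (median 0.818) in the 7 CPB animals and 0.49 to 1.89 CPM (median 1.25) in the 8 controls (linrodostat against control 1.83 ± 0.53, adjusted p = 0.0208). The SLC7A11 call was lost without linrodostat 18 or 20 (adjusted p up to 0.0976). The call of ABCC2 ended without linrodostat 12 (adjusted p up to 0.0673). The high fitted change of GPX2 (3.82 ± 0.92, adjusted p = 0.00687) rested on linrodostat animal 18, at 6.71 CPM. GPX2 missed the threshold without linrodostat 18 (adjusted p up to 0.329). PRDX1 no longer passed without linrodostat 12 or 18 (adjusted p up to 0.181). The PRDX2 call was lost without linrodostat 12 or 18 or control 4 (adjusted p up to 0.166), and also with only the 2 arms compared. The call of PGD ended without linrodostat 12, 18 or 20 or control 4 or 10 (adjusted p up to 0.109). GPX1 missed the threshold without linrodostat 12, 18 or 20 or control 1, 7 or 10 (adjusted p up to 0.147), and also without a low-count filter.

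The linrodostat arm was not shown to differ from the CPB arm in kidney. With edgeR 0 of 36 members passed and 0% of all genes did. DESeq2 also called 0 members, 6 members had an unadjusted p under 0.05, and 31 of 36 log2 fold changes were above 0 (median 0.17, all genes −0.0022). TXNRD1 had the smallest p of them, with 3 of 4 linrodostat kidneys above all 7 CPB kidneys (log2 fold change 1.14 ± 0.25, adjusted p = 0.709). ABCC3 was next (0.77 ± 0.22, adjusted p = 0.998).

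The marker sums in kidney overlapped between the arms, and 2 control animals stood low in SRXN1 and NQO1. Summed macrophage markers (9 of 10 genes found) were 87.9 to 248 CPM in linrodostat, 133 to 282 CPM in CPB and 153 to 1286 CPM in control kidneys, the highest in control 15. Kidney tubule markers (8 of 8) summed to 8474 to 11794 CPM in linrodostat, 8231 to 11923 CPM in CPB and 8299 to 14477 CPM in control kidneys. Ileal epithelium markers (8 of 8, of which 1 was at 0 in all linrodostat kidneys, 1 in all CPB kidneys and 3 in all control kidneys) summed to 95.1 to 186, 92.8 to 257 and 31.1 to 121 CPM in the same order of arms. Smooth muscle markers (5 of 5) summed to 573 to 1306, 195 to 680.5 and 510.4 to 1406 CPM. Their part in the result was not tested. Controls 14 and 15 had the lowest control values of SRXN1 and NQO1. With both left out, a choice made after seeing the data, 12 of 36 members passed as higher with CPB and 17 with linrodostat. In that fit 0 members were lower, and 17.4% of all genes passed with CPB and 20.1% with linrodostat, in either direction. NFE2L2 and KEAP1 then no longer passed with CPB (adjusted p = 0.144 and 0.0836), and ABCC3 did (adjusted p = 0.0201). With linrodostat PRDX1 and PRDX2 then no longer passed (adjusted p = 0.0684 and 0.0603), and CBR1 did (adjusted p = 0.0106).

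Around the members, 45 further pathway genes were found of 58 asked for. With CPB, 10 of the 45 tested in kidney were higher and 4 lower, where 11.3% of all genes were higher and 9.86% lower. NAMPT, the enzyme that salvages nicotinamide for NAD, ranged over 140.3 to 294 CPM (median 263) in CPB animals and 60.3 to 91.4 CPM (median 76.8) in controls (log2 fold change 1.69 ± 0.16, adjusted p = 1.72e-06). MAFK, another small MAF partner, rose (0.84 ± 0.11, adjusted p = 8.09e-05), as did BACH1 (0.95 ± 0.16, adjusted p = 0.000526), a repressor at antioxidant response elements. HMOX1, heme oxygenase 1, had 252 to 4223 CPM (median 1659.8) in CPB animals and 42.2 to 333 CPM (median 81.2) in controls, with overlapping ranges (log2 fold change 4.23 ± 0.60, adjusted p = 0.000129). The 4 lower genes were TXNRD2, IDH1, SLC7A10 and SESN3.

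In the left ventricle SRXN1 was the member with the largest change. Of the 6 that rose, the others were TXNRD1, MGST1, MAFG, PGD and ABCC1, and the 2 that fell were catalase and EPHX1. SRXN1 had 4.32, 2.90, 1.94 and 7.34 CPM in the 4 linrodostat animals, 2.15 to 21.7 CPM (median 5.53) in the 7 CPB animals and 0.966 to 2.90 CPM (median 1.48) in the 8 controls. CPB animals 19 and 2 had the highest values, 6 of 7 CPB hearts were above all controls, and the log2 fold change was 2.45 ± 0.43 (adjusted p = 0.00112). TXNRD1 had 29.3, 21.0, 39.5 and 44.2 CPM in the 4 linrodostat animals, 19.9 to 55.1 CPM (median 28.3) in the 7 CPB animals and 15.1 to 25.7 CPM (median 16.9) in the 8 controls, with 5 of 7 CPB hearts above the controls (log2 fold change 0.87 ± 0.20, adjusted p = 0.0072). MGST1, a membrane-bound glutathione transferase and peroxidase, had 39.0, 53.997, 51.7 and 90.1 CPM in the 4 linrodostat animals, 38.4 to 86.5 CPM (median 72.3) in the 7 CPB animals and 25.4 to 58.4 CPM (median 35.4) in the 8 controls, with 6 of 7 CPB hearts above the controls (log2 fold change 0.78 ± 0.19, adjusted p = 0.0103). PGD had 36.8 to 91.5 CPM (median 46.9) in CPB animals and 20.7 to 42.9 CPM (median 33.7) in controls, with 4 of 7 CPB hearts above the controls (log2 fold change 0.73 ± 0.19, adjusted p = 0.0147). MAFG had 5.71 to 9.98 CPM (median 7.25) in CPB animals and 4.10 to 6.09 CPM (median 4.81) in controls, with 5 of 7 above the controls (log2 fold change 0.59 ± 0.15, adjusted p = 0.0118). ABCC1, a glutathione conjugate pump, had 30.0 to 59.8 CPM (median 46.2) in CPB animals and 20.3 to 38.2 CPM (median 34.0) in controls, with 6 of 7 above the controls (log2 fold change 0.49 ± 0.14, adjusted p = 0.0252). ABCC1 no longer passed without CPB 2 or 25 (adjusted p up to 0.063).

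Catalase, the peroxisomal enzyme that splits hydrogen peroxide, was lower in every CPB heart than in every control. It had 163, 171, 175 and 149 CPM in the 4 linrodostat animals, 114 to 199 CPM (median 147) in the 7 CPB animals and 210.1 to 339 CPM (median 231) in the 8 controls (CPB against control log2 fold change −0.76 ± 0.14, adjusted p = 0.00161). It was the only member whose CPB and control groups did not overlap in heart. The share of all genes without such overlap is not given here, in heart or in other organs. EPHX1, microsomal epoxide hydrolase, had 138, 136, 51.8 and 83.6 CPM in the 4 linrodostat animals, 38.9 to 158 CPM (median 56.3) in the 7 CPB animals and 81.7 to 234 CPM (median 121) in the 8 controls, where 6 of 7 CPB hearts were below all controls and CPB animal 9 was inside their range at 158 CPM (log2 fold change −1.01 ± 0.32, adjusted p = 0.0429). The EPHX1 call was lost when any 1 of 10 animals was left out (all but linrodostat 12, 18, 20 and 24, CPB 9, and control 4, 13, 14 and 15, adjusted p up to 0.0945), and also without a low-count filter. GCLC and GCLM, which rose in kidney, had log2 fold changes of 0.22 ± 0.18 (adjusted p = 0.447) and 0.18 ± 0.14 (adjusted p = 0.421) in heart and did not pass.

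Linrodostat hearts differed from controls in 1 of 33 members, where 1.08% of all genes were higher and 0.96% lower. That member was catalase, with all 4 linrodostat hearts below all controls (log2 fold change −0.66 ± 0.17, adjusted p = 0.0436). The call of CAT ended when any 1 of 10 animals was left out (all but CPB 2, 6, 9, 11, 19 and 21 and control 1, 14 and 26, adjusted p up to 0.154), and also without a low-count filter or with sex as a covariate. The count of passing members was 0 without linrodostat 12, 20 or 24 or control 4, 7, 10, 13 or 15, and 2 without CPB 2, 9, 11 or 19. ABCC1 was next, with all 4 linrodostat hearts above the controls (0.60 ± 0.16, adjusted p = 0.0529), and did not pass. Against CPB hearts 0 of 33 members and 0% of all genes passed with edgeR, DESeq2 called 0 members, and 3 had an unadjusted p under 0.05. The smallest p were those of SRXN1 (−1.20 ± 0.52, adjusted p = 0.806) and GPX3 (−0.84 ± 0.37, adjusted p = 0.806). For 44 tested genes of the wider pathway 3 were higher and 1 lower with CPB, against 6.39% and 5.53% of all genes. Those were HMOX1, with 18.7 to 72.1 CPM (median 25.5) in CPB animals and 2.38 to 34.2 CPM (median 3.67) in controls (log2 fold change 2.12 ± 0.55, adjusted p = 0.0179), GPX7 (0.71 ± 0.19, adjusted p = 0.0163), MAFK (0.70 ± 0.22, adjusted p = 0.0419) and, as the lower one, IDH1 with 6.49 to 13.0 CPM (median 9.37) in CPB animals and 11.2 to 31.7 CPM (median 19.6) in controls (−1.18 ± 0.22, adjusted p = 0.00144). Summed smooth muscle markers (5 of 5 found) were 3899 to 7600.1 CPM in linrodostat, 4193 to 8872 CPM in CPB and 3849 to 5735 CPM in control hearts. Heart muscle markers (6 of 6) were 85698 to 99999 CPM, 57365 to 105581 CPM and 84719.9 to 105343 CPM in the same order of arms, with CPB animal 19 the lowest. Their part in these results was not tested.

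In the liver the 2 subunits of glutamate cysteine ligase moved apart. GCLM had 106, 71.0, 70.5 and 82.0 CPM in the 4 linrodostat animals, 52.0 to 107 CPM (median 68.9) in the 7 CPB animals and 33.7 to 55.8 CPM (median 42.4) in the 8 controls, with 6 of 7 CPB livers above all controls (log2 fold change 0.73 ± 0.15, adjusted p = 0.00183). GCLC had 35.9, 49.9, 70.6 and 41.3 CPM in the 4 linrodostat animals, 15.97 to 91.6 CPM (median 63.9) in the 7 CPB animals and 60.5 to 257 CPM (median 122) in the 8 controls, with 3 of 7 CPB livers below all controls (log2 fold change −1.19 ± 0.35, adjusted p = 0.0171). NFE2L2 was lower as well, with 42.9, 52.4, 55.7 and 43.2 CPM in the 4 linrodostat animals, 47.7 to 66.4 CPM (median 56.0) in the 7 CPB animals and 56.9 to 109 CPM (median 80.0) in the 8 controls (log2 fold change −0.55 ± 0.13, adjusted p = 0.00599), and 4 of 7 CPB livers were below all controls. No CPB or linrodostat liver exceeded the control median of NFE2L2, and the 4 linrodostat livers were below every control. The 3 calls were kept when any 1 animal was left out.

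Peroxiredoxins were the role group with the most passing members in liver, 3 of 5. PRDX3, the mitochondrial peroxiredoxin, had 207, 194, 161 and 211 CPM in the 4 linrodostat animals, 190.3 to 275 CPM (median 226) in the 7 CPB animals and 138 to 196 CPM (median 161) in the 8 controls, with 6 of 7 CPB livers above the controls (log2 fold change 0.45 ± 0.11, adjusted p = 0.00426). PRDX2, a cytosolic form, had 54.3 to 84.7 CPM (median 70.6) in CPB animals and 43.3 to 67.5 CPM (median 53.99) in controls, with 4 of 7 CPB livers above the controls (log2 fold change 0.37 ± 0.11, adjusted p = 0.0202). PRDX6, which uses glutathione as its reductant, had 53.1 to 101 CPM (median 77.6) in CPB animals and 24.2 to 93.0 CPM (median 37.1) in controls (log2 fold change 0.74 ± 0.25, adjusted p = 0.0333), and 1 of 7 CPB livers was above all controls. PRDX6 missed the threshold without CPB 2, 11 or 25 or control 1, 10, 13, 15 or 26 (adjusted p up to 0.0706), and also without a low-count filter or with sex as a covariate. The PRDX2 call was lost without a low-count filter (adjusted p up to 0.0654).

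Further members that rose in CPB livers were GPX1, SRXN1, TALDO1 and MAFG. SRXN1 had 36.6, 31.6, 56.9 and 110.2 CPM in the 4 linrodostat animals, 38.8 to 167 CPM (median 106) in the 7 CPB animals and 13.4 to 81.9 CPM (median 21.6) in the 8 controls, with 4 of 7 CPB livers above all controls (log2 fold change 1.48 ± 0.46, adjusted p = 0.0242). GPX1 had 328 to 673 CPM (median 528) in CPB animals and 311 to 511 CPM (median 336) in controls (log2 fold change 0.52 ± 0.16, adjusted p = 0.0224), with 5 of 7 CPB livers above the controls. TALDO1, transaldolase of the pentose phosphate pathway, had 147 to 209 CPM (median 162) in CPB animals and 113 to 158 CPM (median 138) in controls, with 4 of 7 CPB livers above the controls (log2 fold change 0.32 ± 0.11, adjusted p = 0.0416). The SRXN1 call was lost without CPB 2 or 25 (adjusted p up to 0.0598), and also without a low-count filter. The call of GPX1 ended without CPB 25 (adjusted p up to 0.0536). TALDO1 missed the threshold without CPB 2, 11 or 25 or control 7, 10, 14 or 15 (adjusted p up to 0.0999), and also with relative log expression size factors or without a low-count filter. MAFG no longer passed when any 1 of 10 animals was left out (all but linrodostat 12, 18, 20 and 24, CPB 6 and 9, and control 7, 10 and 13, adjusted p up to 0.0962), and also without a low-count filter. NQO1 and TXNRD1, which rose in kidney, did not pass in liver (log2 fold changes of 0.52 ± 0.31 and 0.29 ± 0.21, adjusted p = 0.229 and 0.319). SOD2, the mitochondrial superoxide dismutase, had 107 to 446 CPM (median 315) in CPB animals and 48.5 to 277 CPM (median 94.99) in controls and did not pass either (1.14 ± 0.44, adjusted p = 0.0596). Without CPB animal 2 the number of passing members was 6, and without CPB animal 25 it was 5.

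**Figure D3:**
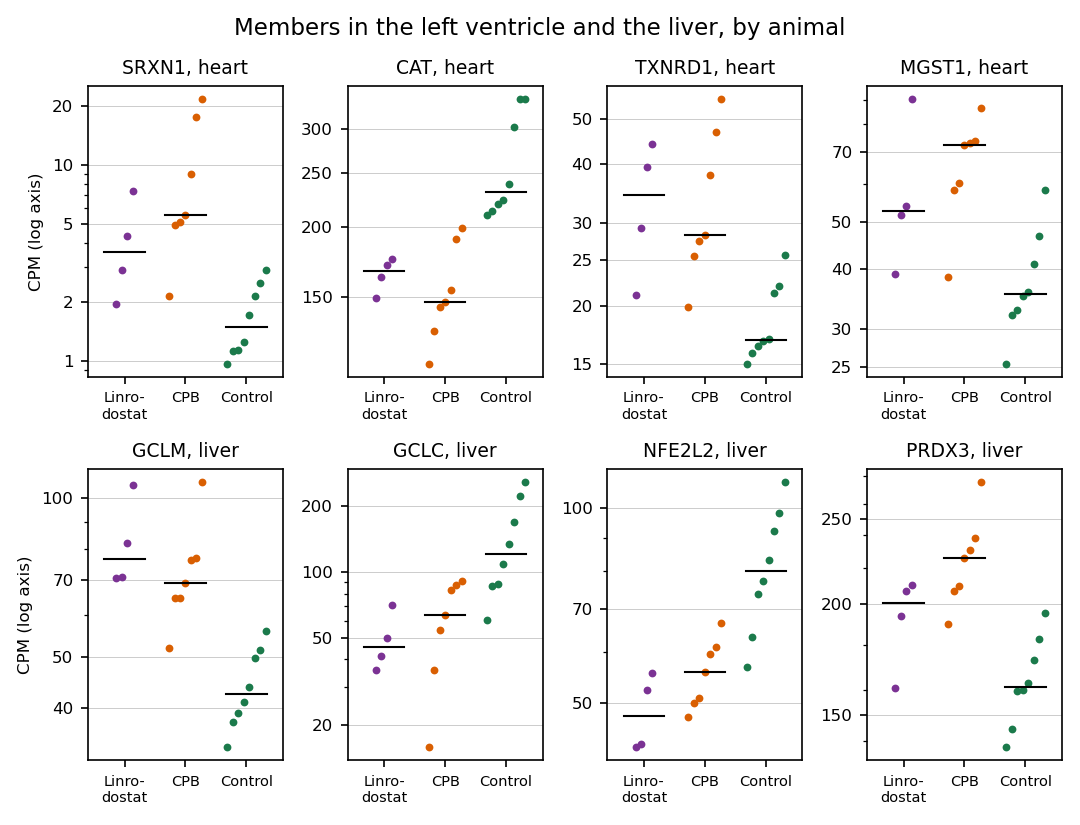
CPM (log axis) of 4 members in the left ventricle (upper panels) and 4 in the liver (lower panels), 1 point per animal, ordered by value within each arm, with the linrodostat, CPB and control animals side by side and the median as a line. Catalase separates all 7 CPB hearts from the controls downward, and in liver GCLM is higher while GCLC and NFE2L2 are lower than in controls.

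Linrodostat livers differed from controls in 5 members, 2 higher and 3 lower, where 12.9% of all genes were higher and 8.88% lower, so their share of higher members was under that of genes at large. GCLM (0.90 ± 0.17, adjusted p = 0.0018) and NFE2L2 (−0.75 ± 0.16, adjusted p = 0.00398) moved in the same direction as with CPB alone and with all 4 animals outside the control range. GCLC (−1.51 ± 0.43, adjusted p = 0.0186) and catalase (−0.69 ± 0.22, adjusted p = 0.0313) were lower, each with 3 of 4 animals below all controls. GPX2 had 1.65, 4.05, 1.28 and 2.95 CPM in the 4 linrodostat animals, 0.0581 to 1.37 CPM (median 0.231) in the 7 CPB animals and 0.0731 to 1.09 CPM (median 0.408) in the 8 controls (linrodostat against control 2.33 ± 0.65, adjusted p = 0.0165). The 4 linrodostat livers were above every control, at levels that are low beside those of ileum. The GPX2 call was lost without linrodostat 18 (adjusted p up to 0.0598). The call of GCLC ended without linrodostat 12 or 24 (adjusted p up to 0.065). CAT missed the threshold without linrodostat 12, 18 or 20 or control 4 (adjusted p up to 0.09). Against CPB livers 0 of 36 members passed, where 0.772% of all genes did, and 1 member had an unadjusted p under 0.05. That member was GPX2 (2.73 ± 0.69, adjusted p = 0.0814), which DESeq2 called and which passed in edgeR without CPB animal 9. CAT was next by p (−0.46 ± 0.22, adjusted p = 0.596). Without linrodostat animal 12 there were 3 passing members against control, and without control 14 there were 8.

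In liver, too, the ranges of the marker sums overlapped between the arms. Summed macrophage markers were 340 to 614 CPM in linrodostat, 369 to 710 CPM in CPB and 500.0 to 1077 CPM in control livers. Summed ileal epithelium markers (8 of 8 found, none at 0 in all livers of an arm) were 639 to 2102 CPM in linrodostat, 155 to 4543 CPM in CPB and 64.6 to 2114 CPM in control livers. Hepatocyte markers were 89602 to 108251 CPM in linrodostat, 97087 to 114586 CPM in CPB and 73457 to 114563 CPM in control livers. The part of these in the liver results was not tested. Of 44 wider pathway genes tested in liver, 10 were higher and 4 lower with CPB, where all genes had shares of 15.6% and 11.3%. Glutaredoxin GLRX (1.01 ± 0.16, adjusted p = 0.00037), with 151 to 297 CPM (median 241) in CPB animals and 87.6 to 134 CPM (median 121) in controls, had no overlap between the arms. NAMPT (1.15 ± 0.21, adjusted p = 0.00107), GSTO1 (0.70 ± 0.15, adjusted p = 0.00291), a glutathione transferase, and HMOX1 (1.04 ± 0.27, adjusted p = 0.00949) were the next by p.

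In the lung 2 members rose with CPB, GCLC and SRXN1. GCLC had 91.5, 68.1, 80.8 and 76.0 CPM in the 4 linrodostat animals, 46.4 to 91.2 CPM (median 70.0) in the 7 CPB animals and 31.4 to 58.2 CPM (median 45.7) in the 8 controls, with 5 of 7 CPB lungs above all controls (log2 fold change 0.52 ± 0.15, adjusted p = 0.0451). SRXN1 had 46.9, 55.4, 61.5 and 34.3 CPM in the 4 linrodostat animals, 17.5 to 129 CPM (median 52.9) in the 7 CPB animals and 12.4 to 43.2 CPM (median 17.4) in the 8 controls, with 4 of 7 above all controls and CPB animal 19 the highest (log2 fold change 1.25 ± 0.35, adjusted p = 0.0476). GCLC no longer passed when any 1 of 12 animals was left out (all but linrodostat 18, CPB 9, 11 and 21, and control 10, 13 and 15, adjusted p up to 0.118), and also without a low-count filter or with sex as a covariate or with only the 2 arms compared. The SRXN1 call was lost when any 1 of 14 animals was left out (all but CPB 6, 11 and 21 and control 13 and 15, adjusted p up to 0.122), and also without a low-count filter or with only the 2 arms compared. The count of 2 members became 0 without linrodostat 12, 20 or 24, CPB 2, 19 or 25, or control 1, 7, 14 or 26, and 1 without linrodostat 18 or control 4 or 10. In lung, 28 of 35 log2 fold changes were above 0, and DESeq2 called 5 members.

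Linrodostat lungs differed from the same controls in 2 of 35 members, both higher, where 1.06% of all genes were higher and 1.28% lower. They were GCLC, with all 4 linrodostat lungs above the controls (0.75 ± 0.17, adjusted p = 0.0235), and NQO1 (0.88 ± 0.21, adjusted p = 0.0285), with 97.1, 59.3, 59.3 and 53.0 CPM in the 4 linrodostat animals, 33.8 to 66.0 CPM (median 47.4) in the 7 CPB animals and 29.8 to 58.8 CPM (median 31.4) in the 8 controls. The call of GCLC ended without linrodostat 12, 20 or 24 (adjusted p up to 0.093). NQO1 missed the threshold without linrodostat 12, 20 or 24 or control 1, 7, 10 or 26 (adjusted p up to 0.149). Without linrodostat 12, 20 or 24 the count was 0, and without control 1, 7, 10 or 26 it was 1. Against CPB lungs 0 of 35 members and 0% of all genes passed with edgeR, DESeq2 called 0 members, and 1 member had an unadjusted p under 0.05. The smallest p were those of NQO1 (0.50 ± 0.21, adjusted p = 1.00) and MGST1 (−0.31 ± 0.19, adjusted p = 1.00). Summed macrophage markers were 2806 to 5419 CPM in linrodostat, 2702 to 5525 CPM in CPB and 5225 to 9175 CPM in control lungs, and neutrophil markers (4 of 8 found) 184 to 365, 175 to 382 and 117 to 250.2 CPM in the same order of arms. Their part in the lung results was not tested. No gene of the wider pathway passed in lung, with 44 tested in each of the 3 comparisons.

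In the ileum no member passed, and the library of CPB animal 19 stood far from all others. With edgeR 0 of 35 members passed in CPB against control, DESeq2 called 0, and 10 had an unadjusted p under 0.05. Without the library of CPB animal 19 that last number was 2. In CPB animal 19, 22 of the 36 members were above all 18 other ilea, 14 of them at least 2-fold above the next highest, and 2 (SOD3 and MGST1) below all others. Over the 35 tested members these shares were 60.0%, 37.1% and 5.71%, and over all 17869 tested genes 11.2%, 1.70% and 9.62%. NQO1 stood at 171 CPM in that animal, against 4.76 to 26.6 CPM in the 18 others. PRDX6 stood at 769 CPM against 46.1 to 98.2 CPM, ME1 at 29.0 CPM against 0.624 to 2.20 CPM and GPX2 at 1200.4 CPM against 48.9 to 224 CPM. These are an NADPH-dependent reductase, a peroxiredoxin, an NADPH source and the gut glutathione peroxidase, so the members that stood out in that library span several roles.

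The same library differed in its cell markers. Ileal epithelium markers summed to 1674 CPM in CPB animal 19 and to 2845 to 12950 CPM in the 18 other ilea, and lymphocyte markers (7 of 7 found) to 127 CPM against 257 to 2206 CPM. Heart muscle markers summed to 87.7 CPM against 2.59 to 44.4 CPM. The part of this in the members' values was not tested. With the library left out, 0 members passed and 2 of 35 had an unadjusted p under 0.05. NQO1 then had a log2 fold change of 0.45 ± 0.31 (adjusted p = 1.00), and 1.90 ± 0.61 (adjusted p = 0.782) with all libraries. PRDX5, a peroxiredoxin of mitochondria and peroxisomes, had the next smallest p with all libraries, at 60.4 to 124 CPM (median 75.4) in CPB animals and 83.6 to 162 CPM (median 112) in controls (log2 fold change −0.48 ± 0.17, adjusted p = 0.831), and did not pass.

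**Figure D4:**
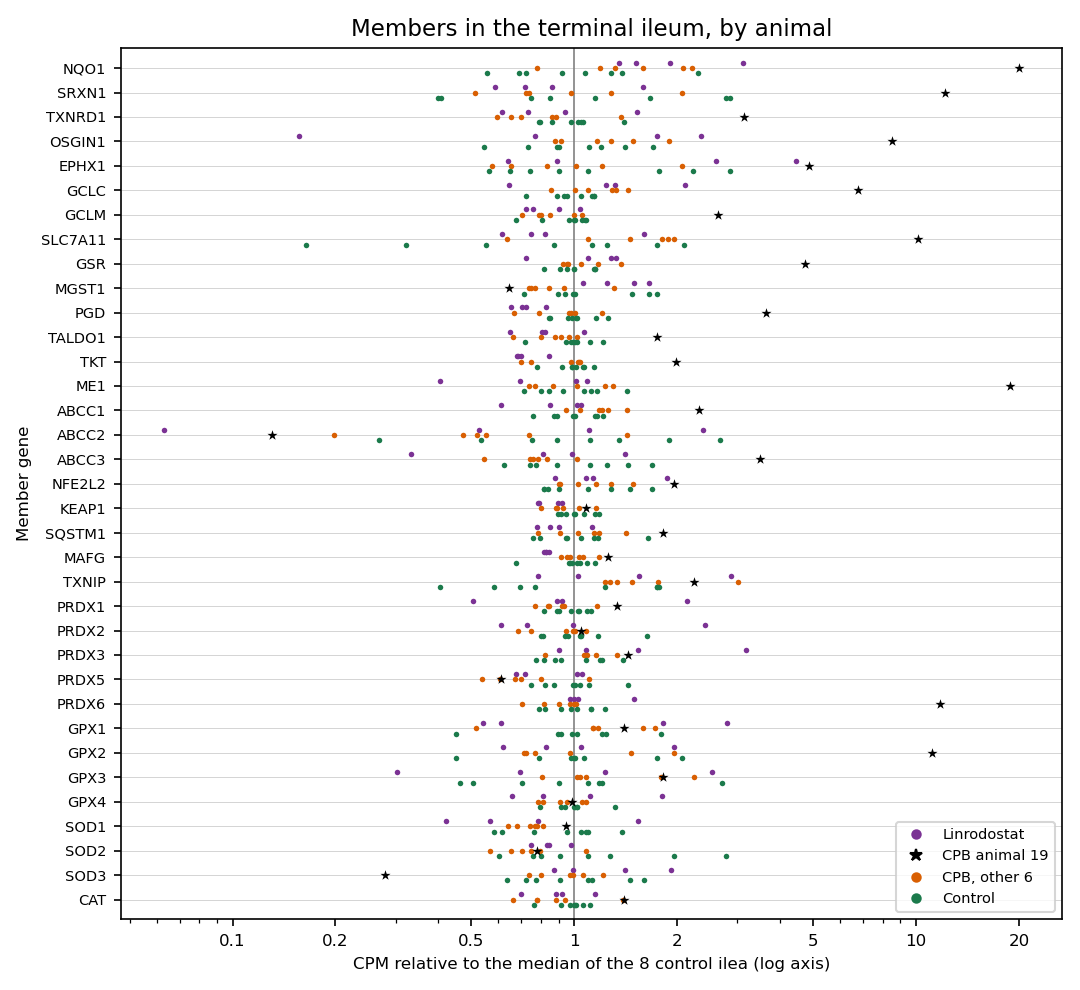
CPM of 35 members in the terminal ileum relative to the median of the 8 control ilea (log axis), 1 point per animal, with CPB animal 19 as a star. The stars of NQO1, ME1, SRXN1, PRDX6 and GPX2 lie far to the right of all other points, and the other 6 CPB ilea overlap with the controls in these members.

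Linrodostat ilea showed 0 of 35 members passing against controls, where 0.151% of all genes were higher and 0.0616% lower, with 2 members at an unadjusted p under 0.05 and 0 by DESeq2. PRDX3 (0.70 ± 0.26, adjusted p = 0.215) and KEAP1 (−0.26 ± 0.12, adjusted p = 0.348) had the smallest p. Against CPB ilea 0 members and 0% of all genes passed, with 6 members at an unadjusted p under 0.05 and 0 by DESeq2. MGST1 (0.67 ± 0.24, adjusted p = 0.462) and ABCC1 (−0.60 ± 0.22, adjusted p = 0.4655) had the smallest p. Without the ileum library of CPB animal 19, 0 members passed in either comparison and 5 had an unadjusted p under 0.05 in each. The smallest p were then those of TKT (−0.45 ± 0.15, adjusted p = 0.151) and PGD (−0.48 ± 0.16, adjusted p = 0.151) against controls, and of MGST1 (0.62 ± 0.25, adjusted p = 0.515) and ABCC1 (−0.41 ± 0.17, adjusted p = 0.521) against CPB ilea. No gene of the wider pathway passed in ileum, with 45 tested.

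Whether the CPB effect differed among organs was tested across all 95 libraries. For 12 of 36 members it did, against 12.9% of all genes. By adjusted p these were GCLC (2.47e-05), SQSTM1 (0.000665), GCLM (0.00325), SOD2 (0.00519), MGST1 (0.00593), NFE2L2 (0.00597), PRDX6 (0.0156), NQO1 (0.0178), ME1 (0.0258), GSR (0.0288), PGD (0.0339) and OSGIN1 (0.0389). Without heart, which carries the other batch label, 6 members passed, namely GCLC, SQSTM1, GCLM, SOD2, NFE2L2 and PRDX6. The share of all genes in that fit is not given here. Without the ileum library of CPB animal 19 ME1 no longer passed (adjusted p = 0.0618), and without animal 19 in any organ neither ME1 (0.159) nor OSGIN1 (0.0878) did. With the animal as replicate block OSGIN1, PRDX6 and ME1 no longer passed (adjusted p = 0.0685, 0.105 and 0.194). SRXN1, which rose in 4 organs, did not pass this test (adjusted p = 0.274).

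Each organ was then set against the mean of the other 4 in the same fit, again without a term for the animal. In kidney 3 members had a higher CPB effect than elsewhere, where 1.99% of all genes differed. On the log2 scale they were SQSTM1 (1.04 ± 0.19, adjusted p = 0.00023), GCLM (0.96 ± 0.21, adjusted p = 0.00273) and GCLC (1.31 ± 0.32, adjusted p = 0.0115). Without heart the differences were 1.06, 0.94 and 1.40 (adjusted p = 0.000478, 0.00789 and 0.016). Without the ileum library of CPB animal 19, 5 members differed in kidney, and the share of all genes in that fit is not given here. In liver 4 members differed, against 8.02% of all genes. GCLC was lower by the widest margin (−2.02 ± 0.33, adjusted p = 1.64e-05), followed by NFE2L2 (−0.68 ± 0.17, adjusted p = 0.00717) and PGD (−0.68 ± 0.22, adjusted p = 0.0393), and SOD2 was higher (1.04 ± 0.35, adjusted p = 0.0459). Without heart GCLC (−2.23, adjusted p = 3.2e-05) and NFE2L2 (−0.83, adjusted p = 0.00159) still passed, and PGD and SOD2 did not (adjusted p = 0.083 and 0.0943). With the animal as replicate block PGD was −0.60 (adjusted p = 0.056), and without animal 19 in any organ neither PGD (−0.52, adjusted p = 0.0639) nor SOD2 (0.93, adjusted p = 0.0911) passed.

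In heart MGST1 had a higher CPB effect than in the other organs (0.73 ± 0.20, adjusted p = 0.021), where 3.85% of all genes differed, and organ and batch cannot be told apart here. Without the ileum library of CPB animal 19, 3 members differed in heart, and likewise 3 without animal 19 in any organ. The shares of all genes in those 2 fits are not given here. In ileum 4 members differed, against 1.62% of all genes, namely MGST1 (−0.81 ± 0.20, adjusted p = 0.0225), SOD2 (−1.29 ± 0.35, adjusted p = 0.0359), PRDX6 (1.22 ± 0.33, adjusted p = 0.0332) and ME1 (1.54 ± 0.44, adjusted p = 0.0464). Without the ileum library of CPB animal 19 the differences of PRDX6 and ME1 turned to −0.27 and −0.34 (adjusted p = 0.483 and 0.651), and that of SOD2 was −1.31 (adjusted p = 0.0531). Without animal 19 in any organ none of these 4 passed (adjusted p = 0.0702 for MGST1, 0.0846 for SOD2, 0.561 for PRDX6 and 0.763 for ME1), and GCLM (−0.72 ± 0.17, adjusted p = 0.0228) and SRXN1 (−2.03 ± 0.49, adjusted p = 0.0284) did. With the animal as replicate block the differences were 0.52 for PRDX6 (adjusted p = 0.370) and 0.61 for ME1 (adjusted p = 0.450). Without heart the difference was −0.68 for MGST1 (adjusted p = 0.0535), 1.17 for PRDX6 (0.073) and 1.36 for ME1 (0.0984), and SOD2 still passed (−1.47, adjusted p = 0.0278). In lung 0 members differed from the other organs, where 0.148% of all genes did.

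**Figure D5:**
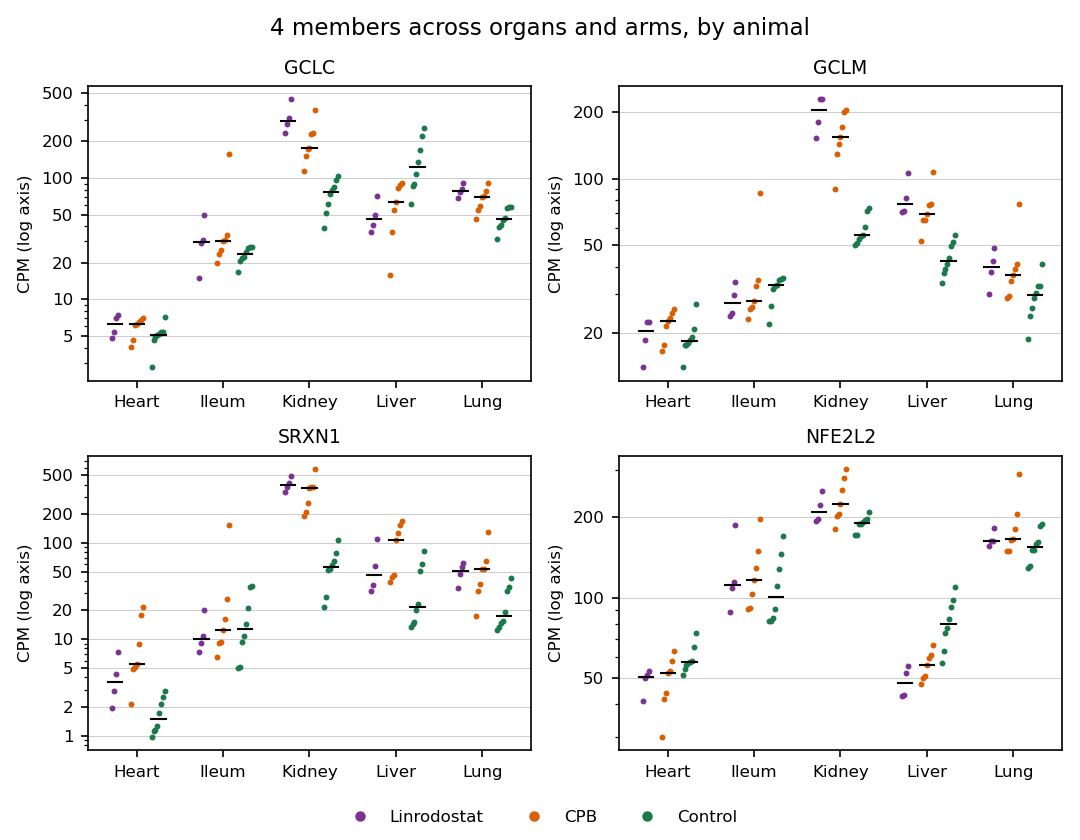
CPM (log axis) of GCLC, GCLM, SRXN1 and NFE2L2 in 5 organs, 1 point per animal, ordered by value within each arm, with linrodostat, CPB and control animals from left to right in each organ and the median as a line. GCLC runs opposite ways in kidney and liver, and the single high CPB ileum point of GCLC, GCLM and SRXN1 is animal 19.

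The CPB effect on GCLC shows the contrast by animal. Its 7 CPB kidneys lay between 114 and 366 CPM and the 8 control kidneys between 38.7 and 104 CPM, whereas the 7 CPB livers lay between 15.97 and 91.6 CPM and the 8 control livers between 60.5 and 257 CPM. GCLM was higher in both organs, with a median of 154 CPM in CPB and 55.5 CPM in control kidneys, and of 68.9 CPM in CPB and 42.4 CPM in control livers. The 2 proteins form 1 enzyme, in which GCLC carries the active site and GCLM lowers the feedback by glutathione.

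Across organs the linrodostat arm was never shown to differ from the CPB arm in any member with edgeR. With 4 against 7 animals in each organ, a p that misses the threshold does not show that the arms were alike. For SRXN1 in kidney the log2 difference was 0.27 ± 0.34 (adjusted p = 0.998), and for GCLM it was 0.33 ± 0.18 (adjusted p = 0.998). For GCLC it was 0.62 ± 0.28 (adjusted p = 0.998) in kidney and −0.32 ± 0.42 (adjusted p = 0.898) in liver.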

How the data were processed

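The submitters' processing notes list STAR and Salmon, the trimmers Trim Galore and cutadapt, bcl2fastq, MultiQC and the build Sscrofa11.1, with no versions and no roles; reads were 150 bp and paired per the labels. The authors deposited 1 table of estimated counts per gene, and how Salmon or STAR entered it is not given in the sources used here. In each library 92.7% to 96.6% of its values were whole numbers (tolerance 1e-09), and all were rounded. No library pair within a group was identical.

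Each organ was fitted on its 19 libraries with edgeR 4.0.16 in R 4.3.3 (filterByExpr by arm, TMM, robust quasi-likelihood F test, Benjamini-Hochberg over all tested genes, threshold 0.05), after tests on simulated data. Organ differences came from 1 fit over 95 libraries without a term for the animal, with an alternative holding the animal as a block. Animal numbers in the labels pair the organs: same-animal deviations correlated at a median r of 0.134 to 0.300 over 10 organ pairs and 13637 genes. The animals are the replicates. The prior count for log2 CPM was 2.

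The members and all lists were chosen with earlier results of these data known. Values by animal were given for the passing members with the smallest adjusted p (up to 8 for CPB against control and 4 for other comparisons), and further members were named after their values were seen. Where under 2 passed, the 2 with the smallest p were named as not passing. Of other pathway genes, up to 4 per organ were named by adjusted p, and further ones were named after their values were seen. Alternatives were DESeq2 1.42.0, size factors by relative log expression, all genes with at least 1 count in place of the filter, sex as a covariate, only the 2 arms compared, no heart, and each animal left out. Leaving out kidney controls 14 and 15 together, the ileum library of CPB animal 19, or animal 19 in all organs was chosen after seeing the data.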

Additional observations from a re-analysis of the deposited data

Results flagged for a closer look

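Single animals lay far from the rest of their arm in 9 of 135 arms and organs looked at for the named members, where chance gives about 1 in 20. In CPB animals, EPHX1 was 158 CPM in the heart of animal 9 (others 38.9 to 73.1 CPM), OSGIN1 202 CPM in the kidney of animal 21 (others 85.4 to 126 CPM), GPX2 1.37 CPM in the liver of animal 9 (others 0.0581 to 0.338 CPM), SRXN1 129 CPM in the lung of animal 19 (others 17.5 to 64.0 CPM) and NQO1 171 CPM in the ileum of animal 19 (others 6.65 to 18.9 CPM). In linrodostat animals, OSGIN1 was 204 CPM in the kidney of animal 12 (others 102 to 119 CPM), GPX2 6.71 CPM in the kidney of animal 18 (others 0.0956 to 0.598 CPM) and NQO1 97.1 CPM in the lung of animal 12 (others 53.0 to 59.3 CPM). In controls, NQO1 was 19.7 CPM in the ileum of animal 13 (others 4.76 to 11.8 CPM).

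The effect of CPB differed among the 5 organs for 12 of 36 members in edgeR's interaction test, against 12.9% of all genes. The adjusted p was 2.47e-05 for GCLC, 0.000665 for SQSTM1, 0.00325 for GCLM, 0.00519 for SOD2, 0.00593 for MGST1, 0.00597 for NFE2L2, 0.0156 for PRDX6, 0.0178 for NQO1, 0.0258 for ME1, 0.0288 for GSR, 0.0339 for PGD and 0.0389 for OSGIN1. Without heart, which carries the other batch label, NQO1, OSGIN1, GSR, MGST1, PGD and ME1 no longer passed. With the animal as replicate block OSGIN1, PRDX6 and ME1 no longer did.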

How the results depend on the processing

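Of the calls, those that passed under every alternative and without each animal were 6 of 8 in heart, 10 of 13 in kidney and 4 of 10 in liver for CPB against control, and 11 of 18 in kidney and 2 of 5 in liver for linrodostat against control; none of 2 in lung in either comparison and not the 1 in heart with linrodostat did. Counts of passing members that moved were, for linrodostat against control in heart (1), 2 with relative log expression size factors, 0 without a low-count filter, 3 with DESeq2 and 3 with only the 2 arms. In lung with CPB (2) they were 0 without the filter, 5 with DESeq2 and 0 with only the 2 arms. In liver they were 5 without the filter for CPB (10) and 1 with DESeq2 for linrodostat against CPB (0). Leaving out 1 animal gave 0 to 2 in heart with linrodostat, 5 to 12 in liver with CPB, 0 to 1 in liver for linrodostat against CPB, 3 to 8 in liver with linrodostat, 0 to 3 in lung with CPB and 0 to 2 in lung with linrodostat; it gave 6 to 9 in heart and 10 to 15 in kidney with CPB. Of 12 members that differed among organs, 6 did so without heart; the animal as replicate block lost OSGIN1 (adjusted p = 0.0685), ME1 (0.194) and PRDX6 (0.105). Members differing in heart (1) became 2 with the replicate block, 3 without the ileum library of CPB 19 and 3 without animal 19. In ileum (4) they became 2 without the filter, 1 without heart and 2 without animal 19, where these were GCLM and SRXN1 and not among the 4, and in kidney (3) they became 5 without the ileum library of CPB 19. Without that library the ileum differences of ME1 and PRDX6 reversed to −0.34 and −0.27, and without animal 19 to −0.28 and −0.25. The causes were not tested. Shares of all genes under these alternatives are not given here, apart from the DESeq2 counts below. Within an organ no paired analysis was possible because the arms hold different animals. Over all genes, DESeq2 called more than edgeR in several comparisons: 16 genes in ileum and 1664 in lung for CPB against control (edgeR 0 and 840), 676, 669 and 1083 in heart, ileum and lung for linrodostat against control (edgeR 304, 38 and 419), and 11, 43, 4, 232 and 5 in heart, ileum, kidney, liver and lung for linrodostat against CPB (edgeR 0, 0, 0, 119 and 0). Relative log expression size factors moved the median of all genes by at most 0.029 (log2) over 15 comparisons.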

Other observations

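In heart and kidney the 3 lowest GPX1 levels belonged to the same 3 animals. In heart GPX1 was 7.71 CPM in CPB animal 6, against 8.14 and 11.9 CPM in controls 1 and 7, and 36.7 to 190.1 CPM in the other 16 animals. In kidney it was 136 CPM in CPB animal 6, against 55.1 and 63.7 CPM in controls 1 and 7, and 142 to 644 CPM in the others. In lung it was 482 CPM in CPB animal 6, against 388 and 385 CPM in controls 1 and 7, and 449 to 866 CPM in the others. In liver these animals were at 328, 341 and 311 CPM beside 315 to 717 CPM in the others, and in ileum at 246, 194 and 97.7 CPM beside 112 to 605 CPM.

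Among the 7 CPB animals, animal 19 had the highest value for 24 of 35 members in ileum, 17 of 35 in lung, 12 of 33 in heart, 10 of 36 in kidney and 3 of 36 in liver. These are 68.6%, 48.6%, 36.4%, 27.8% and 8.33% of the members tested, where animal 19 was the highest for 23.3%, 21.0%, 23.3%, 17.3% and 13.0% of all tested genes in the same organs. In liver, animal 25 was the highest for 13 of 36 (36.1%), and for 15.4% of all tested genes.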
